A study of Mus musculus with 11 samples.

Results

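Solute carriers are the genes whose symbols begin with Slc and a digit or with Slco, and 266 such symbols stand on the liver array of this study, on 288 of its 17280 spots. The members were taken by symbol alone, from the gene annotation of the array platform. Of these 266 genes, 84 had a value on at least 2 arrays in each group and were compared between groups, among 3558 genes tested in all. The livers came from mice labelled C57/BL/J6, with 1 mouse per array, and each liver RNA was set against 1 commercial mouse reference RNA. Fasted mice (3 arrays) were kept for 10 weeks on a diet of 42.16% fat and had no food for the last 48 h. High-fat mice (4 arrays, of which 3 were used) were kept on the same diet for 10 weeks without the fast, and control mice (4 arrays) were kept for 10 weeks on chow of 6.5% fat. The labels count 4, 5 and 9 mice in these study groups, more than the arrays analysed here. They give neither sex nor age, and no fasted group on chow is analysed here, so a fast cannot be told apart from a fast after the high-fat diet. A spot's value is the log ratio of liver RNA over reference RNA, taken here as log2 and centred on the median of its array.

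Solute carriers are membrane proteins that move small molecules by facilitated diffusion, exchange or ion-coupled uptake. The liver uses them to take up and release glucose through Slc2a2, to extract bile acids and drugs from portal blood through Slc10a1 and the Slco proteins, to import amino acids, and to pass metabolites across the inner mitochondrial membrane through the Slc25 carriers. Fatty acid transport proteins of the Slc27 family also activate their substrates as acyl-CoA synthetases, and Slc16 proteins carry lactate, pyruvate and ketone bodies.

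The 10 arrays used held values for 3864 to 5567 spots and correlated with one another at a Pearson r of 0.69 to 0.94. High-fat array 4 correlated with them at -0.03 to 0.01 and was left out of the comparisons. The robust SD over the spots of an array was 0.65 to 0.73 for fasted, 0.39 to 0.58 for high-fat and 0.64 to 0.77 for control livers. Hepatocyte markers lay well above the array median in all groups. The median of the 12 tested markers was 1.49 to 1.51 on the fasted arrays, 1.31 to 1.82 on the high-fat arrays and 1.95 to 3.03 on the control arrays. All 12 were lower in high-fat than in control livers, with a median difference of -0.60. Called were 2 of them (Apoa1 and Cyp3a11), against 4.92% of all genes tested. Once arrays were scaled to 1 spread, 5 of 12 were lower and the median was 0.08. All 12 were lower in fasted than in control livers, with a median of -0.55, which was -0.46 with scaled arrays. Here 2 were called (Cyp3a11 and Ttr), against 3.20% of all genes tested. By limma 0 of the 3 tested macrophage and leukocyte markers were called in each comparison, with 1 at an unadjusted p under 0.05. Of the 6 tested endothelial and stellate markers, 4 were higher and 2 lower in fasted than in control livers. Kdr alone was called there, as a rise, against 2.16% of all genes tested that rose. The 1 tested bile duct marker was not called, and 0 red cell markers and 0 adipose, muscle or pancreas markers could be tested. Their part in the transporter results was not tested, and in whole liver fewer cells of a type and less RNA per cell cannot be told apart.

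Much of the family gave no usable value. Of the 266 genes, 116 had no value on any of the 10 arrays, 66 had some values but too few in at least 1 group, and 84 were tested, 50 of them with a value on all 10 arrays. Tested were 3 of 16 sugar transporters, 15 of 47 amino acid transporters, 10 of 31 transporters of organic ions and bile acids, 14 of 34 mitochondrial carriers and 6 of 14 fatty acid and monocarboxylate transporters. Also tested were 13 of 58 transporters of inorganic ions and metals, 14 of 38 of nucleosides, nucleotide sugars and vitamins, and 6 of 22 others. The last 3 tested symbols, Slc4a1ap, Slc7a6os and Slc9a3r2, name a neighbour or adaptor of a transporter, so 81 of the 84 are carriers.

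**Figure D1:**
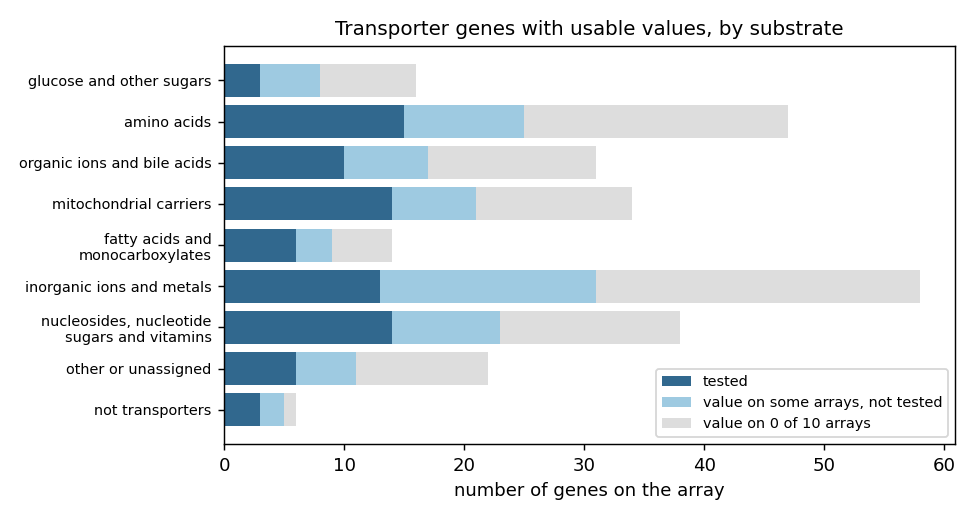
Number of solute carrier genes on the array (x axis) by substrate class (y axis). Dark bars are genes tested, light bars are genes with a value on some of the 10 arrays but too few in a group, and grey bars are genes with no value. Every class lost most of its genes except the 6 neighbours and adaptors, of which 3 were tested.

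The gaps fell on several transporters with known roles in liver. Slc10a1, the sodium-dependent bile acid uptake carrier, the uptake carrier Slco1a1, the monocarboxylate transporter Slc16a1, the citrate carrier Slc25a1 and the amino acid transporter Slc38a2 had a value on 0 of 10 arrays. Slc2a2, the main glucose transporter of hepatocytes, had a ratio of 1.01 on 1 fasted array, no value on the high-fat arrays, and ratios of 2.97 and 2.00 on 2 control arrays. Slco1b2, which takes up bilirubin and bile acids, had a ratio of 3.47 on 1 high-fat array, and Slc37a4, the glucose 6-phosphate carrier of the endoplasmic reticulum, had 0.14 on 1 high-fat array. Slc40a1, the iron exporter, had values only on 3 control arrays, at 0.73, 0.28 and 0.77. Such values allow no comparison between the groups, and an empty cell says nothing of the level, since the rule that emptied it is not given in the sources used here. Slc25a5, Slc25a47, Slc30a10 and Slco2b1 were not analysed here.

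The first comparison asked what the high-fat diet changed against chow. Of the 84 genes, 2 rose and 0 fell by limma at an adjusted p under 0.05, which is 2.38%, against 4.92% of all genes tested (2.95% rose and 1.97% fell). The 2 genes were Slc66a1, a lysosomal exporter of cationic amino acids, and Slc35a4, a Golgi protein of the nucleotide sugar transporter family. At an unadjusted p under 0.05 there were 22 members, 26.2% of the 84, against 25.2% of all genes. The high-fat arrays lay wholly above the control arrays for 12 members and wholly below for 5, or 14.3% and 5.95%, against 16.7% and 8.77% of all genes. The median log2 difference was 0.08 over the members and 0.08 over all genes, with 51 members higher and 33 lower in high-fat livers, against 2149 genes higher and 1409 lower in all. The members' shares of calls and of groups without overlap were below those of all genes, and their share at an unadjusted p under 0.05 was above. Whether these shares differ was not tested.

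The second comparison asked what the fast changed in mice on the high-fat diet. By limma 0 of 84 members were called, against 0.365% of all genes (0.0843% rose and 0.281% fell), and 13 members had an unadjusted p under 0.05, or 15.5% against 14.6% of all genes. Fasted arrays lay wholly above the high-fat arrays for 10 members and wholly below for 12, or 11.9% and 14.3%, against 11.1% and 17.8% of all genes. The third comparison set fasted livers against control livers, with the same control arrays as the first. Here 2 members rose and 0 fell, or 2.38%, against 3.20% of all genes (2.16% rose and 1.04% fell), and 13 members had an unadjusted p under 0.05, or 15.5% against 20.4%. The 2 genes were Slc66a1 again and Slc6a20b, whose human relative SLC6A20 carries proline and other imino acids. Fasted arrays lay wholly above the control arrays for 9 members and wholly below for 4, or 10.7% and 4.76%, against 12.6% and 9.58% of all genes.

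**Figure D2:**
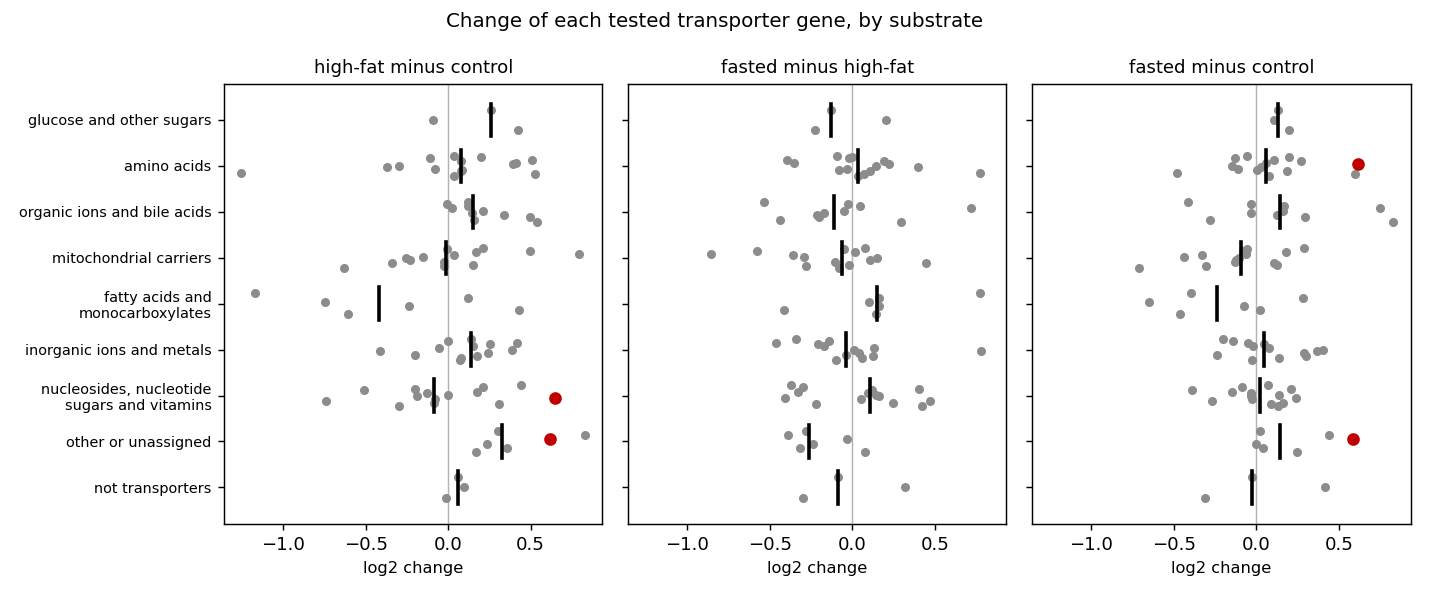
Log2 change (x axis) of each of the 84 tested genes by substrate class (y axis) in 3 panels, one for each comparison. Grey points are single genes, red points are called genes and black bars are class medians. The 4 red points, 2 in the first panel and 2 in the third, all lie on the positive side.

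Slc66a1 exports lysine, arginine and other cationic amino acids from lysosomes, as known from human cells and worms. Its log2 ratio was 0.73, 0.80 and 0.98 on the fasted arrays, 0.80, 1.09 and 0.71 on the high-fat arrays, and 0.03, 0.33, 0.33 and 0.30 on the control arrays. All 6 livers of mice on the high-fat diet, fasted or not, lay above all 4 control livers, and the fasted and high-fat arrays overlapped. It was 1.54-fold higher in high-fat than in control livers, with a log2 change of 0.62 ± 0.14 (SE) and an adjusted p of 0.0285, and 1.50-fold higher in fasted than in control livers, at 0.59 ± 0.14 (SE) with an adjusted p of 0.0414. Between fasted and high-fat livers the log2 change was -0.03 ± 0.15 (SE, adjusted p = 0.948). An F test over the 3 groups gave an adjusted p of 0.0353. The change against control passed in 11 of 21 other settings for high-fat livers (adjusted p 0.00532 to 0.126) and in 8 of 21 for fasted livers (0.0190 to 0.129). It kept its sign in all 21. Settings that alter only the genes tested, the prior or the arrays of the third group cannot move this change, so a kept sign there was fixed in advance. Without control array 1, its lowest array, the log2 change was 0.55 for high-fat livers and 0.52 for fasted livers, and neither passed. With high-fat array 4 in the fit the adjusted p was 0.0428 for high-fat livers, and the call for fasted livers was lost. The log2 change for high-fat livers stayed at 0.62, so array 4 gave no value for this gene. The call there is therefore not support from a further liver.

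Slc6a20b is a mouse relative of human SLC6A20 and lies next to another mouse relative, Slc6a20a. What Slc6a20b carries was not measured here. Its log2 ratio was 0.56, 0.45 and 0.77 on the fasted arrays, 0.48, 0.29 and 0.34 on the high-fat arrays, and -0.05, -0.14, -0.12 and 0.21 on the control arrays. Again the 4 control livers lay below the other 6, and the fasted and high-fat arrays overlapped. Fasted livers averaged 0.59 ± 0.16 and control livers -0.03 ± 0.16 (SD, n = 3 and 4), a log2 change of 0.62 ± 0.13 (SE) with an adjusted p of 0.0312. In high-fat against control livers the change of 0.40 ± 0.13 (SE) did not pass (adjusted p = 0.0962), and in fasted against high-fat livers it was 0.22 ± 0.14 (SE, adjusted p = 0.466). The F test gave an adjusted p of 0.0402. The call for fasted livers held in 10 of 21 other settings, with adjusted p of 0.0125 to 0.103. It was lost with high-fat array 4 in the fit. Slc6a20a had a log2 change of -0.30 in high-fat against control livers (adjusted p = 0.165) and -0.15 in fasted against control livers (adjusted p = 0.546). The genes are close copies, and whether the spots tell their RNAs apart was not tested.

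Slc35a4 was measured on 2 of the 3 high-fat arrays, at -0.14 and -0.39, against -0.93, -0.82, -0.74 and -1.16 on the control arrays. The fasted arrays, at -0.72, -0.53 and -0.76, lay below both high-fat arrays and overlapped the control arrays. The log2 change in high-fat against control livers was 0.65 ± 0.16 (SE), or 1.57-fold, with an adjusted p of 0.0465. It was -0.41 ± 0.17 (SE) in fasted against high-fat livers (adjusted p = 0.311) and 0.24 ± 0.14 (SE) in fasted against control livers (adjusted p = 0.362). The call held in 3 of the 17 other settings in which the gene could be tested, with adjusted p of 0.0332 to 0.120.

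**Figure D3:**
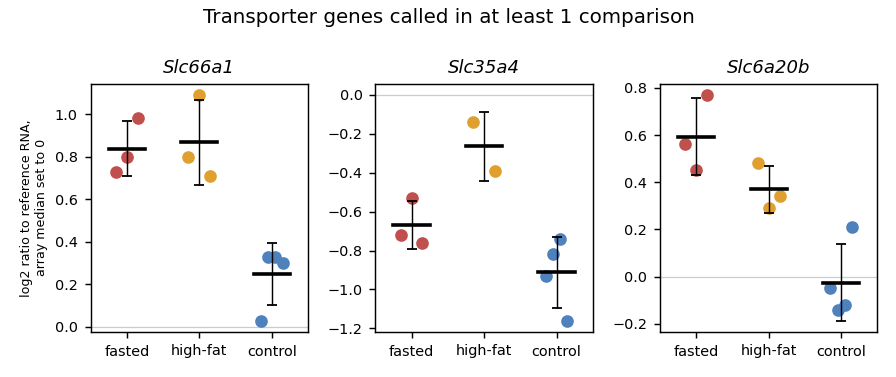
Log2 ratio of liver over reference RNA, with the array median set to 0 (y axis), for the 3 called genes in fasted, high-fat and control livers. Points are single arrays, horizontal bars are means and error bars are SD. Control arrays lie lowest for Slc66a1 and Slc6a20b, and the 2 measured high-fat arrays lie highest for Slc35a4.

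The promoters of the genes that rose in fasted livers are shown because both genes had 6 livers of mice on the high-fat diet above 4 control livers. The sequences are those of RefSeq on GRCm38.p6, from 250 bases before to 50 bases after the annotated start. The Slc66a1 window is chr4:139310659-139310958 and the Slc6a20b window is chr9:123632489-123632788, both on the minus strand and read 5′ to 3′. Capitals mark an AGGTCA match that overlaps a CAGCTG match.
Slc66a1: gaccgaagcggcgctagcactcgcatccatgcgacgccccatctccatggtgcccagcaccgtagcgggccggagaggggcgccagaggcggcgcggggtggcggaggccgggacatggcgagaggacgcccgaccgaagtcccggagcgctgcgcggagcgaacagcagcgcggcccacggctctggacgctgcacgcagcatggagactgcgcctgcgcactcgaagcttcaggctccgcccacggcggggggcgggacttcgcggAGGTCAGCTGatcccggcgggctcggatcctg
Slc6a20b: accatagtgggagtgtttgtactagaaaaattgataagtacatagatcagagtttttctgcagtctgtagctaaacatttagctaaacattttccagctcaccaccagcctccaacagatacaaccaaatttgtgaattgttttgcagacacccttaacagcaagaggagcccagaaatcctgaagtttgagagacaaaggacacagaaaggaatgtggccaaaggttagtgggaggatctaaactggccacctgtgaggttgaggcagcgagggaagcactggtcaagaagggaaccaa
The windows have little in common. The first has a GC content of 73.3% and 41 CpG dinucleotides, more than 96.5% of the 32851 promoters of the table, and the second has 44% and 1 CpG, with 5.43% of promoters holding fewer. The median promoter holds 7 CpG. Searched on either strand were CACGTG, found in 7.15% of all promoters of this length, CAGCTG, found in 16.3%, TATAAA, found in 13.6%, CCAAT, found in 37.4%, AGGTCA, found in 16.3%, TGACGTCA, found in 1.79%, and TGATGNAAT, found in 0.965%. The Slc66a1 window holds the marked AGGTCA and CAGCTG letters and none of the other motifs, and the Slc6a20b window holds none of the 7. A match is only a run of letters and is not evidence of a bound site.

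Slc6a20b was the 1 gene called among the 15 tested genes classed as amino acid transporters. That class leaves out Slc66a1, which exports cationic amino acids, was also called and is counted in the unassigned class. Of the 15, 5 had an unadjusted limma p under 0.05 in high-fat against control livers. There were 1 in fasted against high-fat and 2 in fasted against control livers. Over all genes tested these shares were 25.2%, 14.6% and 20.4%, which also stand beside the class counts below. In high-fat against control livers 10 were higher and 5 lower, with a median log2 difference of 0.08, which was 0.02 with scaled arrays and -0.01 with arrays centred on fully measured spots. The largest difference in any comparison with control was that of Slc38a4, a sodium-coupled importer of neutral amino acids that is abundant in liver. Averaged over its 2 filled spots it was 1.12, 1.09 and 1.27 on the fasted arrays, 0.09 and 0.69 on 2 high-fat arrays, and 0.89, 2.56, 1.81 and 1.29 on the control arrays. The high-fat arrays lay below all others, at -1.25 ± 0.37 (SE) against control, with an adjusted p of 0.0698, and the change was 0.77 ± 0.39 (SE) in fasted against high-fat livers (adjusted p = 0.373). The average mixes spots filled on different arrays. The spot filled in most of them read 0.64, 0.25 and 0.26 on the fasted arrays, 0.09 and 0.01 on the high-fat arrays, and 0.89, 2.08, 1.52 and 0.73 on the control arrays, and on its own it fell in high-fat livers by 1.25 (limma adjusted p = 0.0456). The change of this spot was 0.33 in fasted against high-fat livers (adjusted p = 0.660) and -0.92 in fasted against control livers (adjusted p = 0.0946). Without control array 1 the averaged gene also passed, at -1.50 with an adjusted p of 0.0389.

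Slc1a6, a glutamate transporter best known from cerebellar neurons, was 0.14, 0.09 and -0.03 on the fasted arrays, -0.17, 0.05 and 0.10 on the high-fat arrays, and -0.42, -1.07, -0.28 and -0.37 on the control arrays. The control livers again lay below all others. The differences from control were 0.60 ± 0.18 (SE) for fasted livers and 0.53 ± 0.18 (SE) for high-fat livers, with adjusted p of 0.0893 and 0.0969. Slc6a19, a neutral amino acid transporter of gut and kidney, was 1.04 to 1.15 on the fasted arrays, 0.54 to 0.78 on the high-fat arrays and 0.88 to 1.52 on the control arrays. Its high-fat arrays lay below all others, with a difference of -0.37 from control (adjusted p = 0.180), which was -0.11 with scaled arrays and -0.03 with quantile normalisation. Slc6a19 falls outside the naming rule and is given because it is one of 4 members with that arrangement. Slc7a5 and its partner Slc3a2, which together exchange large neutral amino acids, differed by 0.03 and 0.08 between high-fat and control livers (adjusted p = 0.887 and 0.851).

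Of the sugar transporters 3 could be tested and 0 were called by limma, with 1 unadjusted p under 0.05, that of Slc2a9 in high-fat against control livers. The member with the smallest F test p was Slc2a9, a carrier of urate and sugars. It was -0.78, -0.53 and -0.22 on the fasted arrays, -0.22, -0.26 and -0.38 on the high-fat arrays, and -0.99, -0.91, -0.66 and -0.27 on the control arrays. The groups overlapped, with a log2 difference of 0.42 ± 0.18 (SE) between high-fat and control livers (adjusted p = 0.179). The differences of Slc37a3 and Slc45a2, the remaining tested members, ran from -0.13 to 0.26 over the 3 comparisons.

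Among 10 transporters of organic anions, organic cations and bile acids, 9 were higher in high-fat than in control livers, with 0 called by limma, 1 unadjusted p under 0.05 and a median of 0.15, against 0.08 over all genes. The median was 0.22 with quantile normalisation and 0.20 with scaled arrays, again with 9 of 10 higher, and 0.0746 with 8 of 10 higher when arrays were centred on fully measured spots. Quantile normalisation put the median over all genes at 0.11, and that centring put it at 0.00. Slc22a21, a carnitine transporter of the mouse, was 1.58 and 1.49 on the fasted arrays, 0.48, 0.84 and 1.12 on the high-fat arrays, and 0.85, 0.54 and 0.97 on the control arrays. Its 2 fasted values lay above all others. The log2 difference was 0.72 ± 0.21 (SE) from high-fat livers and 0.75 ± 0.21 (SE) from control livers, with adjusted p of 0.159 and 0.0859, and with the arrays left uncentred the difference from control passed, at 0.96 with an adjusted p of 0.0334, where the median of all genes was also 0.21. With scaled arrays the difference from high-fat livers was 0.37 and that from control livers 0.66, and neither passed (adjusted p = 0.591 and 0.145). The related carnitine importer Slc22a5 differed by 0.05 and 0.17 in the same comparisons (adjusted p = 0.927 and 0.608).

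Slc10a6, a carrier of steroid sulfates, was 1.45, 1.77 and 2.64 on the fasted arrays, 0.99, 2.47 and 1.52 on the high-fat arrays, and 0.50, 1.35, 1.39 and 1.25 on the control arrays. Fasted livers lay above control livers, by 0.83 ± 0.36 (SE), but the spread within the groups was wide and the adjusted p was 0.217. Slco2a1, the prostaglandin uptake transporter, was -0.42 and -0.40 on 2 fasted arrays, 0.21, 0.09 and 0.08 on the high-fat arrays, and 0.05 and -0.04 on 2 control arrays. Its fasted values lay below all others, at -0.54 ± 0.15 (SE) from high-fat livers (adjusted p = 0.152). Slc22a7, a hepatic organic anion transporter, differed by at most 0.03 in size in each comparison (adjusted p of 0.934 or more).

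The 14 mitochondrial carriers had a median log2 difference of -0.02 in high-fat against control, -0.06 in fasted against high-fat and -0.09 in fasted against control livers, with 0 called by limma and 3 at an unadjusted p under 0.05 in each comparison. In fasted against control livers 10 of 14 were lower, which became 7 of 14 with quantile normalisation. The largest fall in the last comparison was that of Slc25a10, which exchanges malate and succinate for phosphate. It was 0.25, 0.05 and 0.01 on the fasted arrays, 0.22 and 0.14 on 2 high-fat arrays, and 0.08, 1.43, 0.85 and 0.89 on the control arrays. Control array 1 lay among the other groups and the remaining control arrays above them. The differences from control were -0.71 ± 0.25 (SE) for fasted livers and -0.63 ± 0.28 (SE) for high-fat livers, with adjusted p of 0.139 and 0.192, and the high-fat difference was -0.38 with quantile normalisation. Without control array 1 they were -0.95 and -0.88, with adjusted p of 0.0458 and 0.0449.

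Slc25a30 is a carrier first described in kidney, and its log2 ratio was far below 0 in every liver. It was -2.93, -2.57 and -3.10 on the fasted arrays, -2.22, -1.86 and -1.96 on the high-fat arrays, and -3.19, -2.45, -2.42 and -3.17 on the control arrays. The high-fat arrays lay above all others. The difference was 0.79 ± 0.22 (SE) in high-fat against control livers (adjusted p = 0.0582) and -0.85 ± 0.23 (SE) in fasted against high-fat livers (adjusted p = 0.140). The same differences were -0.05 and 0.03 with scaled arrays, and 0.36 and -0.29 with quantile normalisation. The first passed by limma with values on all 10 arrays required (adjusted p = 0.0461), with 3 values per group (0.0454) and without control array 2 (0.0412). In the remaining settings it did not pass. Slc25a37, which imports iron into mitochondria for haem synthesis, also had ratios far below 0. It was -1.92 to -1.40 on the fasted arrays, -1.26 to -0.93 on the high-fat arrays and -2.00 to -1.14 on the control arrays, and control array 4 lay above high-fat array 3. The difference was -0.58 between fasted and high-fat livers (adjusted p = 0.248) and -0.11 with scaled arrays.

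Other hepatic members of the class had no call. Slc25a20, the carnitine-acylcarnitine carrier that brings long-chain fatty acids into mitochondria, was 0.03, -0.24 and -0.40 on the fasted arrays, -0.14, -0.01 and -0.14 on the high-fat arrays, and -0.32, 0.52, -0.16 and -0.33 on the control arrays. Its groups overlapped, and the difference was -0.11 ± 0.21 (SE) in fasted against high-fat livers (adjusted p = 0.847). The glutamate carrier Slc25a22 differed by -0.23 ± 0.13 (SE) in high-fat against control livers (adjusted p = 0.294), a difference that was 0.05 with quantile normalisation. The ornithine carrier Slc25a15 could not be tested, with values on 1 high-fat and 3 control arrays.

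Transporters of fatty acids and monocarboxylates had the lowest class median in high-fat against control livers, at -0.42 over 6 genes with 4 lower, but 0 of them were called by limma, and 3 had an unadjusted p under 0.05. With scaled arrays the median was -0.12 and with quantile normalisation -0.03, each with 3 of 6 lower. Slc27a5, which conjugates bile acids to CoA and takes up fatty acids, was 1.35, 1.59 and 1.20 on the fasted arrays, 0.24, 0.30 and 1.27 on the high-fat arrays, and 1.01, 2.88, 1.60 and 1.61 on the control arrays. High-fat arrays 1 and 2 lay below all others and high-fat array 3 among the control arrays. The difference from control was -1.17 ± 0.37 (SE), or 2.25-fold lower, with an adjusted p of 0.0817 (-0.75 with quantile normalisation), and it was 0.78 ± 0.40 (SE) in fasted against high-fat livers (adjusted p = 0.377). Slc27a2, a very long chain acyl-CoA synthetase, was 1.88, 1.33 and 0.72 on the fasted arrays, 1.12, 0.77 and 1.74 on the high-fat arrays, and 2.31, 2.73, 0.81 and 1.98 on the control arrays. Its groups overlapped, with differences from control of -0.65 for fasted and -0.75 for high-fat livers (adjusted p = 0.397 and 0.276), and the high-fat difference was -0.14 with quantile normalisation. For Slc27a5, Slc27a2 and Slc38a4 the highest value was that of control array 2, on which the median of the hepatocyte markers was also highest, at 3.03. That array also had the widest spread of the arrays used, with a robust SD of 0.77. Whether these values go with either was not tested.

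Slc16a3, a lactate exporter of glycolytic cells, went the other way. It was 0.35, 0.12 and 0.28 on the fasted arrays, 0.55, 0.67 and 0.76 on the high-fat arrays, and 0.35, 0.35, 0.09 and 0.12 on the control arrays. The high-fat arrays lay above all others, by 0.43 ± 0.12 (SE) from control (adjusted p = 0.0667), and fasted livers lay 0.41 ± 0.13 (SE) below high-fat livers (adjusted p = 0.199). With scaled arrays the first difference was 0.63 and with quantile normalisation 0.68, and both passed (limma adjusted p = 0.0209 and 0.0115). With quantile normalisation fasted livers also passed against high-fat livers, at -0.65 with an adjusted p of 0.0455. Slc16a14, an orphan of the family, differed by -0.61 between high-fat and control livers (adjusted p = 0.163, -0.37 with scaled arrays) and by -0.46 between fasted and control livers (adjusted p = 0.266).

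**Figure D4:**
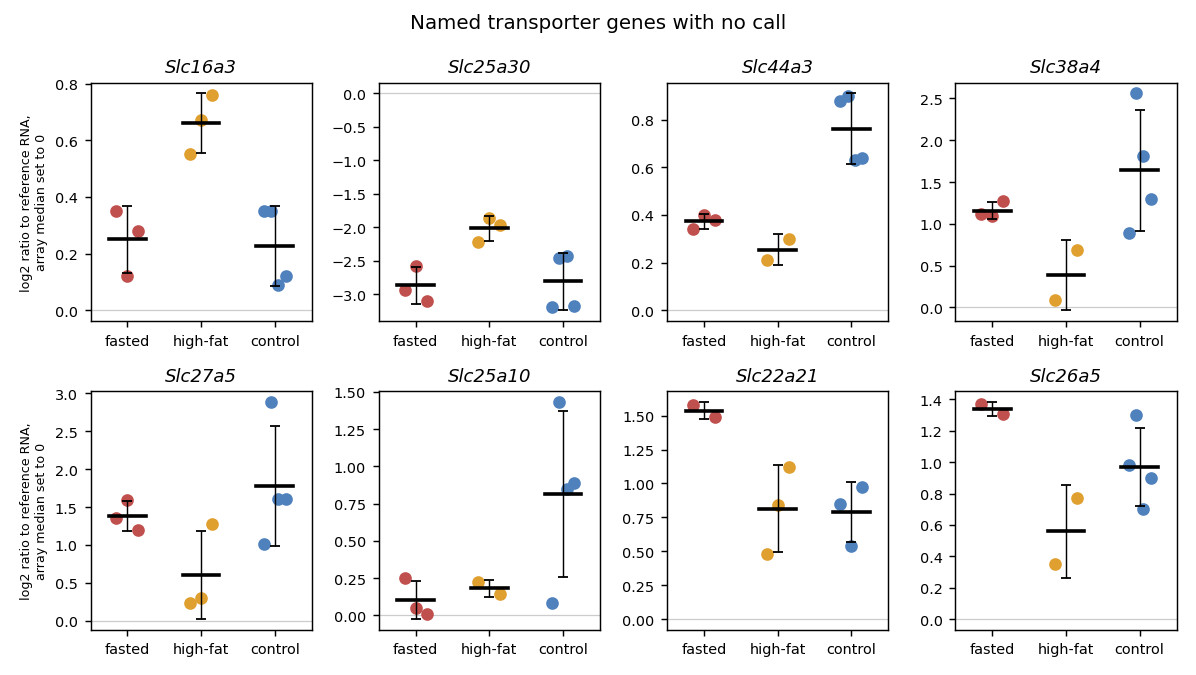
Log2 ratio of liver over reference RNA, with the array median set to 0 (y axis, scaled per panel), for 8 named genes with no call in fasted, high-fat and control livers. Points are single arrays, horizontal bars are means and error bars are SD. High-fat arrays lie above both other groups for Slc16a3 and Slc25a30, and below both for Slc44a3 and Slc38a4, and the fasted arrays lie highest for Slc22a21 and Slc26a5.

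By limma 0 of the 13 transporters of inorganic ions and metals were called, with 2 at an unadjusted p under 0.05 in each comparison. Slc26a5, the anion-binding motor protein of outer hair cells, was 1.37 and 1.31 on 2 fasted arrays, 0.35 and 0.77 on 2 high-fat arrays, and 0.98, 1.30, 0.70 and 0.90 on the control arrays. The fasted values lay just above the highest control value, and the difference from high-fat livers was 0.78 ± 0.22 (SE, adjusted p = 0.155). Slc39a13, a zinc transporter of the early secretory pathway, was -0.44, -0.91 and -0.84 on the fasted arrays, -0.10, -0.42 and -0.28 on the high-fat arrays, and -0.60, -0.81, -0.78 and -0.54 on the control arrays. Its high-fat arrays lay above all others, and the difference was -0.46 ± 0.16 (SE) in fasted against high-fat livers (adjusted p = 0.221) and 0.42 ± 0.15 (SE) in high-fat against control livers (adjusted p = 0.109). Slc39a14, the hepatic importer of zinc and iron, and the phosphate transporter Slc20a1 differed by at most 0.24 in size in each comparison, with adjusted p of 0.553 or more.

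Slc35a4 was the 1 gene called among the 14 transporters of nucleosides, nucleotide sugars and vitamins. Including it, 4 had an unadjusted p under 0.05 in high-fat against control livers. Slc44a3, a choline transporter-like protein, was 0.34, 0.40 and 0.38 on the fasted arrays, 0.21 and 0.30 on 2 high-fat arrays, and 0.88, 0.90, 0.63 and 0.64 on the control arrays. The 3 groups did not overlap, with control livers on top. The differences from control were -0.39 ± 0.12 (SE) for fasted livers and -0.51 ± 0.14 (SE) for high-fat livers, with adjusted p of 0.110 and 0.0613, and the high-fat difference was -0.31 with quantile normalisation. Its relative Slc44a4 was 0.57 to 0.65 on the fasted arrays, 0.16 to 0.29 on the high-fat arrays and 0.33 to 0.48 on the control arrays, also without overlap, and its difference of 0.41 ± 0.11 (SE) between fasted and high-fat livers had an adjusted p of 0.151. The naming rule does not cover Slc44a4, which is given because its groups do not overlap. Slc29a3, a nucleoside transporter of lysosomes, was 0.66, 0.60 and 0.91 on the fasted arrays, 0.34, 0.04 and 0.37 on the high-fat arrays, and 0.83, 1.63, 1.18 and 0.33 on the control arrays. Control array 4 lay among the high-fat arrays. The difference was -0.74 ± 0.25 (SE) between high-fat and control livers (adjusted p = 0.0909), and without control array 4 it was -0.96 with an adjusted p of 0.0257. With scaled arrays it was -0.54 (adjusted p = 0.196) and with quantile normalisation -0.45. The nucleoside transporter Slc29a1 differed by 0.25 between fasted and high-fat livers (adjusted p = 0.429).

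All 6 genes of the remaining class were higher in high-fat than in control livers, with a median of 0.33. Over all genes tested 2149 of 3558 were higher, with a median of 0.08. With scaled arrays 5 of the 6 were higher, with a median of 0.31. Slc66a1 was the one called. The largest difference was that of Slc66a2, a relative of Slc66a1, at 0.83 ± 0.36 (SE, adjusted p = 0.179), but it averages 3 spots that disagree. The 2 spots that could be tested on their own differed by 0.18 and 0.02 (adjusted p = 0.714 and 0.977). Slc7a6os, which encodes no transporter and takes its name from the opposite strand of the Slc7a6 gene, was 0.93, 1.03 and 0.89 on the fasted arrays, 0.70, 0.63 and 0.55 on the high-fat arrays, and 0.33, 0.65, 0.50 and 0.65 on the control arrays. Fasted livers lay above both other groups, by 0.42 ± 0.12 (SE) from control (adjusted p = 0.0859).

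Taking the groups' arrays as they lay, the high-fat arrays were above both other groups for 8 members (9.52%, against 7.25% of all genes tested) and below both for 4 (4.76%, against 3.18%). The 8 were Slc10a7, Slc16a3, Slc18b1, Slc25a30, Slc35a4, Slc39a13, Slc7a10 and Slco2a1, and the 4 were Slc38a4, Slc44a3, Slc44a4 and Slc6a19. These counts are for centred arrays only. With scaled arrays the high-fat minus control and fasted minus high-fat differences were reversed for Slc7a10 (-0.22 and 0.27) and Slc25a30 (-0.05 and 0.03). For Slc44a3 they were -0.35 and -0.00283, and the other genes of the 8 and the 4 kept both signs. The fasted arrays were above both other groups for 4 members (4.76%, against 3.12%) and below both for 2 (2.38%, against 3.77%). The control arrays were below both for Slc1a6, Slc66a1 and Slc6a20b (3.57%, against 6.38%) and above both for Slc44a3 alone among the members (1.19%, against 4.08%).

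The size of a gene's ratio went with its difference. Across the 84 members the log2 difference between high-fat and control livers had a slope of -0.26 on the mean log2 ratio (Pearson r = -0.49), so members with a high ratio tended to be lower in high-fat livers and members with a low ratio higher. In fasted against high-fat livers the slope was 0.30 (r = 0.67). Over all genes tested the slopes were close to these, at -0.22 and 0.25. The 2 comparisons share the high-fat arrays, whose log ratios had the narrowest spread, the points share arrays, and genes are not independent replicates. With scaled arrays the slopes were 0.07 and -0.03, and with quantile normalisation 0.02 and 0.05. With scaled arrays the difference between high-fat and control livers was 0.90 for Slc66a1, 0.63 for Slc16a3, -0.05 for Slc25a30, 0.03 for Slc25a37, -0.26 for Slc27a2, -0.88 for Slc27a5 and -1.01 for Slc38a4.

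**Figure D5:**
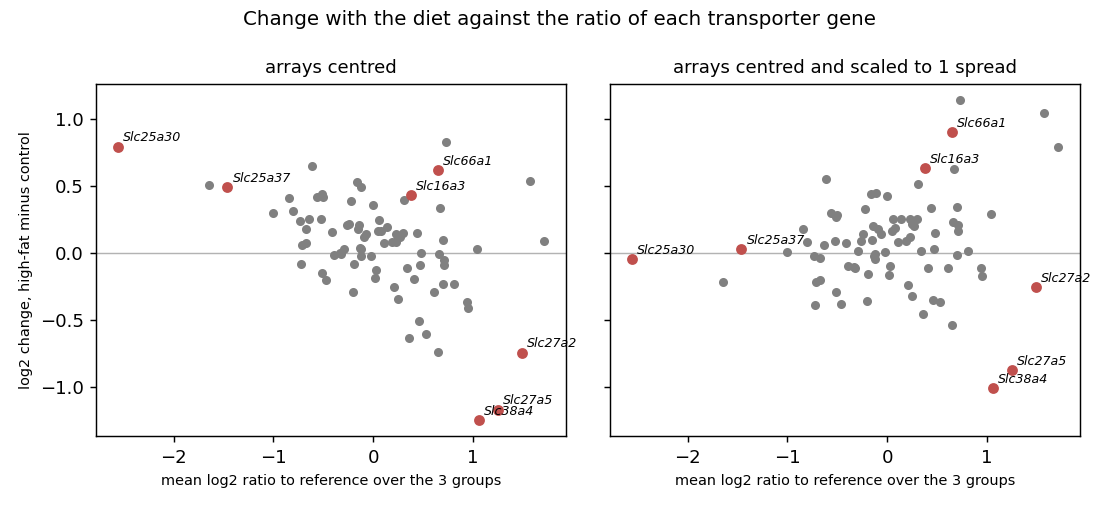
Log2 change in high-fat minus control livers (y axis) against the mean log2 ratio to the reference RNA over the 3 groups (x axis) for the 84 tested genes, with arrays centred (left) and with arrays centred and scaled to 1 spread (right). Red points are labelled genes. The slope of -0.26 in the left panel is 0.07 in the right panel.

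Channels and pumps outside the family were read for comparison. Of 72 aquaporin, ABC transporter and other membrane transporter genes with a spot 21 could be tested, and 12 were higher and 9 lower in high-fat than in control livers. The 2 that rose were the aquaporins Aqp7, which passes glycerol, at 0.73 (limma adjusted p = 0.0147), and Aqp11, at 0.82 (adjusted p = 0.0316). Over all genes tested 2.95% rose. Both lie outside the naming rule. In fasted against high-fat and in fasted against control livers 0 of the 21 were called. There were 4 and 3 at an unadjusted limma p under 0.05, against 14.6% and 20.4% of all genes tested. In high-fat against control livers there were 3, against 25.2%. Of 20 partners and regulators of hepatic transport with a spot 5 could be tested, and 0 were called in any comparison. At an unadjusted limma p under 0.05 there were 2 in high-fat against control livers, against 25.2% of all genes tested. There were 1 in fasted against high-fat livers, against 14.6%, and 0 in fasted against control livers, against 20.4%.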

How the data were processed

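Liver RNA of 11 mice was measured on 2-colour arrays, 1 mouse per array. Per the labels, Cy5 marked the liver RNA and Cy3 the common reference RNA. The authors deposited log ratios per spot, taken here as log2 ratios of liver over reference. The log base is not given in the sources used here, nor how the authors corrected, normalised and filtered the spots; with another base all log2 changes would be scaled alike. No intensities were used, so signal over background is not known and precision rests on the number of arrays. Nothing in the labels says that extracts were repeated, and each p-value measures the spread between mice of 1 array each.

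High-fat array 4 was left out by the rule that chose the members. Each remaining array was centred on its median, and the spots of 1 symbol were averaged. Genes with at least 2 values in each group entered 1 linear model with 3 group means (limma 3.58.1, R 4.3.3), and two-sided p-values were corrected after Benjamini and Hochberg over all 3558 genes of a contrast. Calls were made below an adjusted p of 0.05. In simulated arrays of 3558 genes, 100 genes were changed by 1 log2 unit and 100 by 2. Of those changed by 1 unit, 91, 92 and 91 were recovered in high-fat against control, fasted against high-fat and fasted against control arrays. All 100 changed by 2 units were recovered in each, beside 10, 14 and 3 false calls. The measured arrays gave 175, 13 and 114 calls over all genes in the same comparisons. The share recovered can depend on how many genes change, so it does not carry over to these data.

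The members, gene lists, marker lists and tests were chosen with earlier results of these data known. The substrate classes were revised after values had been seen: Slc6a20a and Slc6a20b were moved to amino acids, Slc35 subfamilies to nucleotide sugars, and 6 symbols that name no transporter were set apart, which added Slc7a6os to the named genes. Slc66a1 stayed in the unassigned class. Named are all called members, per contrast the 4 largest rises and 4 largest falls, 32 hepatic transporters wherever tested, and per class the gene with the smallest F test p. That gave 28 genes. Replicate numbers only number mice and were not used to pair arrays. Alternatives changed the centring, scaling, filter, averaging, samples or model, 1 at a time.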

Additional observations from a re-analysis of the deposited data

Results flagged for a closer look

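The 24 named genes with a value on all 4 control arrays were screened for a control array that lay apart from the other 3. Chance flags about 1 in 20 such groups, and here 3 of 24 stood out. For Slc66a1, the gene called in 2 comparisons, control array 1 read 0.03 and the other control arrays 0.30 to 0.33. For the steroid sulfate carrier Slc10a6, control array 1 read 0.50 and the others 1.25 to 1.39. For the glutamate carrier Slc25a22, control array 4 read 1.09 and the others 0.72 to 0.75. Groups of 3 arrays were not screened.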

How the results depend on the processing

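Against high-fat livers no setting but 2 called a member in fasted livers, and the other calls depended on the processing. In high-fat against control livers 2 members were called, and the count was 0 with values as deposited, 0 with centring on spots filled on all 10 arrays, 0 with 2 groups in the fit and 0 with no prior on the spread. In fasted against control livers 2 were called, and the count was 4 with values as deposited, 0 with scaled arrays, quantile normalisation, centring on fully filled spots, all 11 arrays, 2 groups in the fit or no prior, with all 11 arrays giving 2 in high-fat against control livers. In fasted against high-fat livers 0 were called, and the count was 1 with quantile normalisation (Slc16a3) and 1 with 2 groups in the fit (Slc25a30). Deviations from the group means correlated at -0.17 to 0.15 between equally numbered arrays, so the numbers were not taken to pair the samples. With the replicate number as a block the counts were 1 in high-fat against control livers (Slc29a3, which fell), 0 in fasted against high-fat livers and 1 in fasted against control livers (Slc6a20b). Leaving out 1 array at a time gave 0 to 3 calls in high-fat against control, 0 to 0 in fasted against high-fat and 0 to 2 in fasted against control livers. Without control array 1 the 2 calls in each comparison with control were all falls (Slc25a10 with Slc38a4, and Slc25a10 with Slc25a28), without control array 3 the counts were 0 in both, without any 1 high-fat array the first was 0, and without any 1 fasted array the last was 0. The median over members in high-fat against control livers was 0.0833, and 0.0146 with centring on fully filled spots, 0.131 with 3 values required per group, and 0.0533 to 0.155 over the leave-one-out fits. In fasted against high-fat livers it was -0.0217, and 0.183 as deposited, where the median of all genes was 0.16 and 60 of 84 members were higher, and -0.0583 to 0 over the leave-one-out fits. In fasted against control livers it was 0.0288, and 0.213 as deposited (all genes 0.21, 70 of 84 members higher), 0.0844 with quantile normalisation, -0.0604 with centring on fully filled spots, and 0.0108 to 0.0633 over the leave-one-out fits. Centring on fully filled spots left 35 of 84 members higher in that comparison, against 45 in the fit reported. Of 1608 values of the 28 named genes under other settings, 48 lost a call, 16 gained one, 0 called values changed sign, and 74 values called in neither setting changed sign. Only the 4 called pairs of gene and comparison could lose a call. Against control, Slc35a4 lost it in 14 of 17 settings for high-fat livers and Slc6a20b in 11 of 21 for fasted livers. Slc66a1 lost it in 10 of 21 settings for high-fat livers and in 13 of 21 for fasted livers. The cause of these moves was not tested, except that fewer samples or genes enter by construction when arrays or groups are left out.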

Other observations

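Transporters too sparsely filled to be tested hold further values. Of the 66 such genes 21 had a value on 1 array. At least 2 fasted and 2 control arrays but under 2 high-fat arrays were filled for 12 genes, and at least 2 high-fat and 2 control arrays but under 2 fasted arrays for 5. At least 2 fasted and 2 high-fat arrays but under 2 control arrays were filled for 2. The shares over all genes were not computed, so these counts are not a result about the members. Slc28a3, a nucleoside importer, read 1.04 and 1.36 on 2 fasted arrays, and 2.63, 2.73, 1.84 and 1.25 on the control arrays, with no value on the high-fat arrays. Slc11a2, an iron importer, read 1.30, 1.86 and 0.91 on the fasted arrays, 0.16, 0.48 and 0.85 on the high-fat arrays, and 0.05 on 1 control array. Its fasted arrays lay above its high-fat arrays. The organic anion transporter Slco1a6 had values only on 2 control arrays, at 3.13 and 1.65. Slc22a26, of the organic anion transporter family, and Slc6a12, a betaine transporter, had values only on the 3 high-fat arrays, at -0.57 to -0.56 and at 0.05 to 0.31. These genes fall outside the naming rule and were chosen after their values were seen.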
